A study of Mus musculus with 26 samples.

Results

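The 10 genes described here encode the core FOS and JUN subunits of the transcription factor AP-1 (Fos, Fosb, Fosl1, Fosl2, Jun, Junb and Jund), the zinc finger factors Egr1 and Egr2, and Atf3, a basic leucine zipper factor of the ATF/CREB family. They were listed by name with no rule on their values, although earlier results of these data were known. Each symbol matched a single entry among the 50686 genes listed in the count table. All 10 were among the 17286 genes with enough counts to be tested.

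AP-1 is a dimer of basic leucine zipper proteins. FOS proteins bind DNA only together with a JUN partner, whereas JUN proteins can also pair with each other, and the makeup of the dimer sets its strength as an activator or repressor. Fos, Egr1 and several others are immediate early genes, which growth factors, catecholamines, stretch, cell stress and tissue handling can switch on within minutes and without new protein synthesis, and their mRNAs are short-lived. In brown adipose tissue (BAT), which burns fuel to make heat, noradrenaline from sympathetic nerves acts through cyclic AMP and several kinases, routes that are known to reach these genes.

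RNA-sequencing was performed on BAT from 26 male mice on a C57BL/6J background, 12 to 16 weeks old, with 4 groups given by the sample labels. Mice labelled fat-specific Afadin knockout (FAKO) carried Adiponectin-Cre, which is active in adipocytes of brown and white fat alike, and floxed alleles of Mllt4, the gene that encodes the junction protein Afadin (now named Afdn). Control mice were their littermates. All mice were first kept for 2 weeks at thermoneutrality, which the methods give as 29 °C and the labels as 30 °C. The groups held 7 control mice and 7 mice labelled FAKO killed at thermoneutrality (called 29 °C below), and 5 control mice and 7 mice labelled FAKO killed after a further 6 h at 5 °C. The methods describe a move to another incubator for the cold-exposed mice, so cold and the move cannot be told apart.

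Total counts ran from 12705969 to 25732258 per mouse, and each of 73 within-group pairs of libraries differed beyond sampling noise (lowest chi-square per gene 4.83). The p-values measure the spread between mice. Values are given as CPM, the counts of a gene scaled to the size of its library with TMM factors. Afdn had 196 ± 21.0 CPM in control mice and 195 ± 27.4 CPM in mice labelled FAKO at 29 °C (SD, n = 7 each), so the targeted mRNA was not lower in those libraries at 29 °C. At 5 °C Afdn had 73.5 ± 4.27 CPM in control mice and 58.5 ± 4.15 CPM in mice labelled FAKO (SD, n = 5 and 7), with no overlap. That log2 fold change of -0.33 did not pass edgeR's quasi-likelihood test over all genes (adjusted p = 0.116). Counts over the whole gene need not report a deleted part. The groups are therefore named by their labels. Ucp1, the uncoupling protein that marks brown adipocytes, had 985 ± 234 CPM in control mice at 29 °C and 16005 ± 552 CPM at 5 °C (SD, n = 7 and 5). Control mouse 7 at 29 °C stood apart. Its share of mitochondrial counts was the lowest of all mice (14.3%, against a median of 29.3%), and its sum over 8 stromal markers was the highest (3639 CPM). It had 5483 CPM summed over 8 skeletal muscle markers, the most of the mice at 29 °C.

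Levels can be compared between genes only per length, so CPM was divided by the length of all exons of a gene. Per kb, Jun was the most abundant of the 10 at 29 °C in control mice, with a median of 29.8 CPM per kb. Junb followed with 13.1, Fos with 8.77 and Egr1 with 8.64, and these neighbours overlapped widely between mice (2.91 to 26.9, 0.371 to 25.4 and 0.379 to 16.4). Atf3 (4.63), Fosl2 (4.39) and Jund (4.12) formed an overlapping middle group, and Egr2 (2.35), Fosl1 (1.16) and Fosb (0.520) were the least abundant. In control mice at 5 °C the order changed. Jun (16.7), Atf3 (16.1) and Junb (14.5) stood at the top with overlapping ranges, and Fosl2 (8.66) and Jund (8.15) stood above the medians of Fos (4.74), Fosb (3.00), Egr1 (1.77), Fosl1 (1.67) and Egr2 (0.615).

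**Figure D1:**
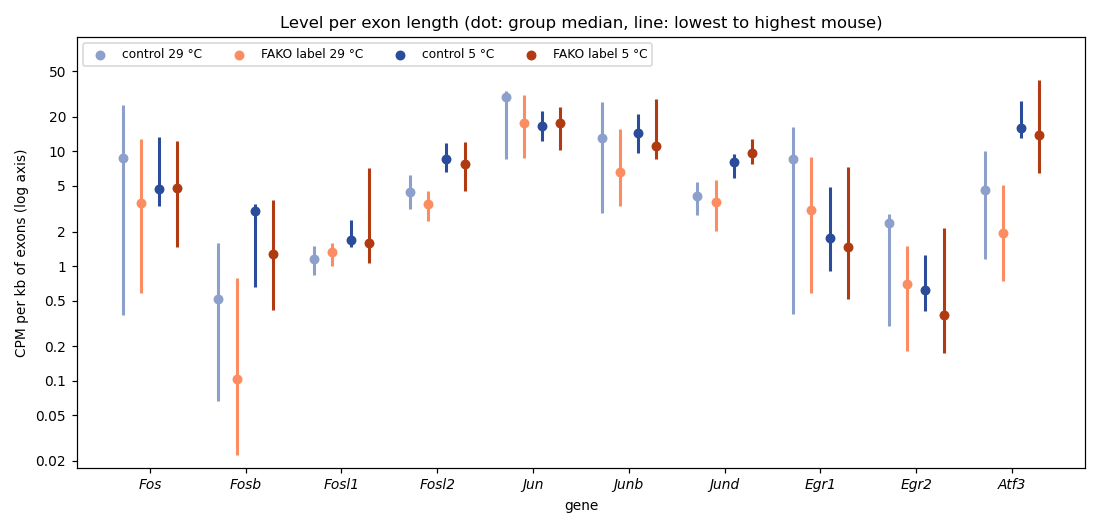
Level of each gene in CPM per kb of exons (log axis) in the 4 groups; dots are group medians and lines run from the lowest to the highest mouse (n = 7, 7, 5 and 7). Jun has the highest median at 29 °C, and in control mice Atf3 moves from a median of 4.63 at 29 °C to 16.1 at 5 °C.

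After 6 h of cold, the members went different ways. Atf3, Fosb, Fosl2 and Jund were higher at 5 °C in control mice and in mice labelled FAKO, Fosl1 passed the threshold as higher in mice labelled FAKO, and Egr1 was lower in control mice. Fos, Jun, Junb and Egr2 did not pass the test in either genotype. In control mice 4 of 10 rose and 1 fell, where 31.6% of all genes tested rose and 33.4% fell. Among mice labelled FAKO 5 of 10 rose and 0 fell, where 33.7% of all genes rose and 34.9% fell. With cold moving so much of the transcriptome, these counts are near the background for rises and below it for falls. The median log2 fold change of the 10 was 0.29 in control mice and 0.77 in mice labelled FAKO, beside -0.01 and -0.03 over all genes. Fosl2, Jund and Atf3 had all 5 cold control mice above all 7 control mice at 29 °C, as 23.5% of all genes did, and 0 members had them all below, where 22.9% of all genes did. The same held in mice labelled FAKO for Jund and Atf3 (2 of 10 higher without overlap against 21.1% of all genes, and 0 lower against 19.3%).

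**Figure D2:**
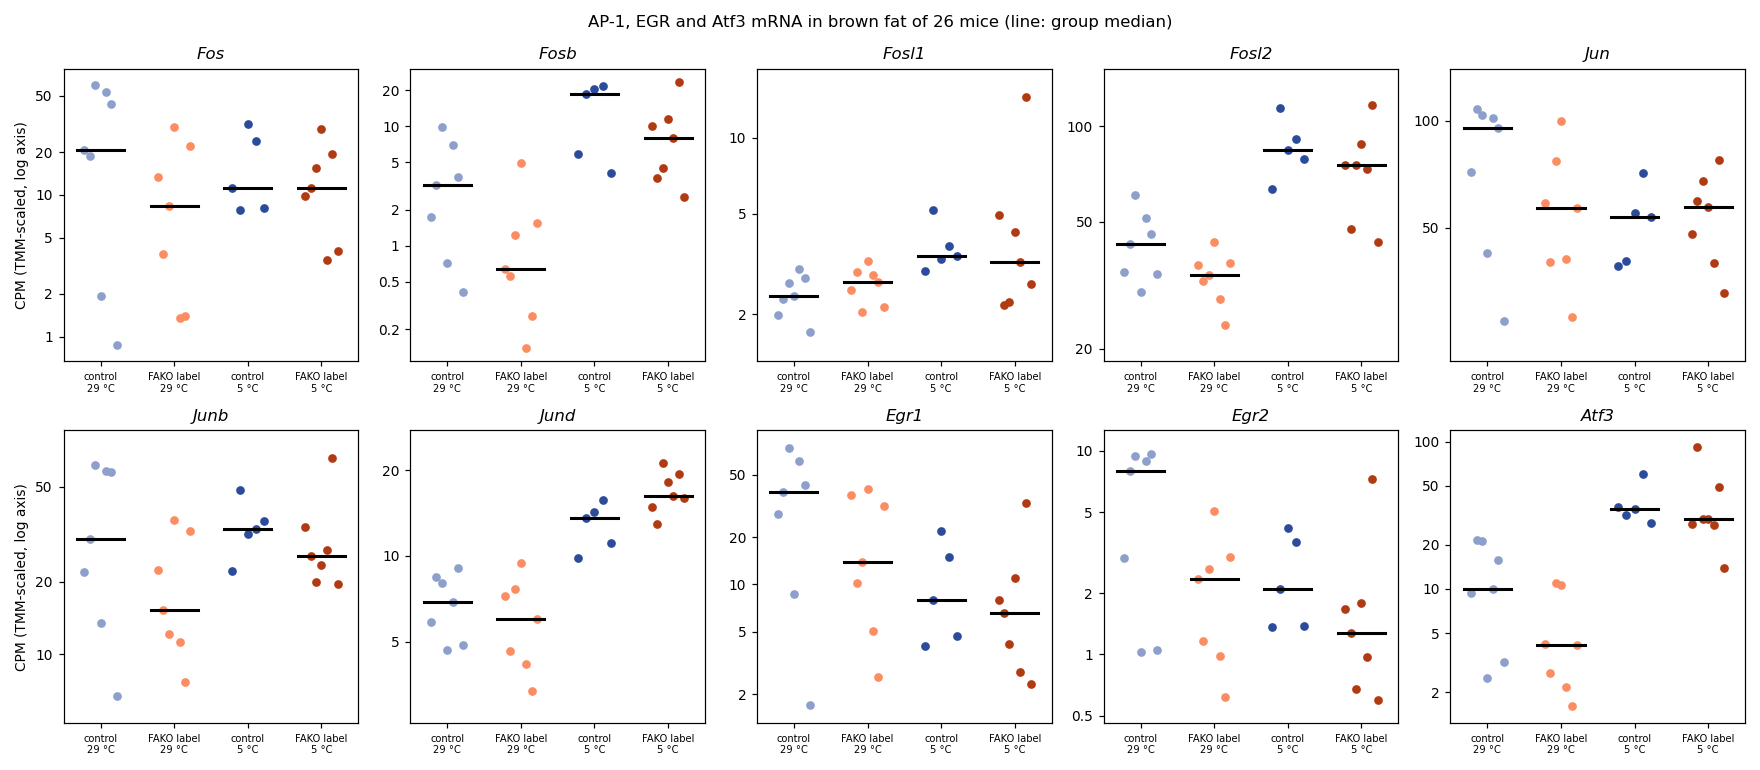
CPM of the 10 genes (log axis, a scale for each gene) in every mouse of the 4 groups; each dot is a mouse and the line is the group median. Jund and Atf3 at 5 °C lie above their levels at 29 °C with no overlap within either genotype, while Fos, Junb and Egr1 spread over more than the distance between the groups.

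Among the FOS genes, Fos itself is the archetypal immediate early gene. It is listed as ENSMUSG00000021250.13 and lies on the plus strand of chromosome 12 from 85473890 to 85477273 (mm10). Control mice at 29 °C had 0.872 CPM at the lowest, 20.6 at the median and 59.8 at the highest, while at 5 °C the 5 control mice showed 11.2, 7.80, 31.5, 23.9 and 8.12 CPM. Every cold control mouse thus lay inside the range of the mice kept warm. The fitted log2 fold change was -0.77 (SE 0.76, adjusted p = 0.387). All adjusted p-values of fold changes come from the quasi-likelihood test of edgeR, after Benjamini and Hochberg, unless another tool is named. The means of log2 CPM were 3.82 in both control groups, whereas the means of CPM were 28.4 and 16.5. Mice labelled FAKO had 1.36, 8.38 and 30.1 CPM at 29 °C (lowest, median, highest) and 3.48, 11.2 and 29.1 at 5 °C. The ranges overlapped almost fully and the log2 fold change was 0.20 (SE 0.70, adjusted p = 0.809).

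Fosb encodes a close relative of FOS whose protein and truncated form outlast FOS in other tissues. It is listed as ENSMUSG00000003545.3, on the minus strand of chromosome 7 from 19302696 to 19310051. It had 0.413, 3.25 and 9.91 CPM (lowest, median, highest) in control mice at 29 °C and 5.81, 18.7, 20.4, 21.8 and 4.09 CPM in the 5 control mice at 5 °C. Cold mice 17, 18 and 19 lay above every warm control mouse and the other 2 did not. The log2 fold change was 1.90 (SE 0.65, adjusted p = 0.0129). With the FAKO label, Fosb had 0.141, 0.640 and 4.90 CPM at 29 °C and 2.57, 7.93 and 23.4 at 5 °C, with 4 of 7 cold mice above every warm mouse. Its log2 fold change of 2.82 (SE 0.68, adjusted p = 0.000644) was close to that of Atf3. At 3 to 83 counts per mouse in warm mice labelled FAKO, Fosb was also among the least deeply counted members.

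Fosl2 and Fosl1 encode the FOS-related antigens FRA-2 and FRA-1, which lack the strong activation domain of FOS. Fosl2 (ENSMUSG00000029135.10, plus strand of chromosome 5 from 32135801 to 32157842) showed the steadiest rise of the FOS genes. Control mice had 30.2, 42.5 and 60.8 CPM at 29 °C (lowest, median, highest) and 63.5, 114, 83.8, 91.2 and 78.6 CPM at 5 °C. No cold control mouse overlapped with the warm ones, and the log2 fold change was 1.01 (SE 0.20, adjusted p = 8.32e-05). Mice labelled FAKO rose from 23.8, 34.0 and 43.4 CPM to 43.3, 75.5 and 117 CPM, with 6 of 7 cold mice above all warm mice, and the log2 fold change was 1.14 (SE 0.19, adjusted p = 5.88e-06).

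Fosl1 (ENSMUSG00000024912.5, plus strand of chromosome 19 from 5447547 to 5455946) is the gene whose call rested on 1 mouse. Control mice had 1.70, 2.36 and 3.01 CPM at 29 °C (lowest, median, highest) and 2.97, 5.16, 3.30, 3.74 and 3.40 CPM at 5 °C. Of the cold mice 4 of 5 lay above the warm range, and the log2 fold change of 0.63 (SE 0.34, adjusted p = 0.106) did not pass. Mice labelled FAKO had 2.04, 2.69 and 3.24 CPM at 29 °C and 2.18, 3.23 and 14.5 CPM at 5 °C. The fitted log2 fold change of Fosl1 was 0.89 (SE 0.31, adjusted p = 0.0124), and without mouse 27, the one with 14.5 CPM, it was 0.30 (adjusted p = 0.152). Fosl1 overlaps with Ccdc85b on the opposite strand, which had 2.12 to 8.57 CPM over all mice. The kit kept the strand but the strand setting of the counting is not given in the sources used here, so the reads of Fosl1 and of its partner cannot be told apart.

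The share of each gene in its family is given as a description and was not tested. A share also depends on the levels of the other genes of the family. Fos made up a median of 64.4% of the summed FOS-family level per kb in control mice at 29 °C and 34.6% at 5 °C. Warm and cold control mice overlapped almost fully in this share (7.68% to 74.0% and 16.1% to 49.7%). The share of Fosl2 had medians of 26.4% and 47.9%, with overlapping ranges as well (17.5% to 73.7% and 32.1% to 58.4%), and that of Fosb had medians of 2.40% and 12.1%. In mice labelled FAKO the medians were 43.1% and 26.5% for Fos, 42.4% and 48.3% for Fosl2 and 1.37% and 7.32% for Fosb. The share of Fosb did not overlap between warm and cold mice, with a small gap between its highest warm value (4.59% in control mice and 3.99% in mice labelled FAKO) and its lowest cold value (4.71% and 4.45%).

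Among the JUN genes only Jund passed the test. JUND is the JUN protein most often found in resting cells. Jund (ENSMUSG00000071076.6, plus strand of chromosome 8 from 70698949 to 70700616) had 4.65, 6.88 and 9.08 CPM in control mice at 29 °C (lowest, median, highest). The 5 cold control mice had 9.85, 13.6, 14.3, 15.7 and 11.1 CPM, all above the warm range. The log2 fold change of Jund was 0.92 (SE 0.20, adjusted p = 0.00029). Under the FAKO label it had 3.36, 5.99 and 9.44 CPM at 29 °C and 12.9, 16.3 and 21.3 CPM at 5 °C. No cold mouse overlapped with a warm one there either, and the log2 fold change was 1.49 (SE 0.19, adjusted p = 1.15e-07), the smallest adjusted p of any member. Jund overlaps with the antisense gene Gm11175 (70699162 to 70700080), which had 0 counts in every mouse. How reads in this overlap were counted is not known, so the level per kb and the family share of Jund are uncertain.

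Jun, the founding JUN gene, lies on the minus strand of chromosome 4 from 95049034 to 95052222 (ENSMUSG00000052684.4). Control mice at 29 °C had 27.3, 95.1 and 108 CPM (lowest, median, highest), and the cold control mice had 39.0, 40.3, 54.9, 71.4 and 53.4 CPM. All 5 cold mice lay below the warm median of Jun, yet the log2 fold change of -0.60 (SE 0.31, adjusted p = 0.0887) did not pass. It passed when either of the 2 warm control mice with the least Jun was left out (without mouse 4, -0.71, adjusted p = 0.0457, and without mouse 7, -0.77, adjusted p = 0.0171). Mice labelled FAKO had 28.0, 56.6 and 99.9 CPM at 29 °C and 32.7, 57.0 and 77.3 at 5 °C, and the log2 fold change was -0.07 (SE 0.28, adjusted p = 0.832). Jun shares its locus with the antisense gene Junos, which had 0.544 to 2.44 CPM.

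Junb, whose protein can restrain JUN, lies on the minus strand of chromosome 8 from 84974484 to 84978718 (ENSMUSG00000052837.6). It had 6.70, 30.1 and 61.8 CPM in warm control mice (lowest, median, highest) and 22.2, 48.6, 31.6, 33.4 and 36.0 CPM in cold control mice. The cold values of Junb sat within the warm range, and the log2 fold change was -0.05 (SE 0.44, adjusted p = 0.924). Mice labelled FAKO had Junb at 7.64, 15.3 and 36.3 CPM at 29 °C and 19.6, 25.7 and 66.0 CPM at 5 °C, and the change on the log2 scale was 0.65 (SE 0.40, adjusted p = 0.154). All 7 cold mice labelled FAKO lay above the warm median of Junb. The 3′ end of Junb overlaps with Prdx2 on the other strand, an abundant gene with 119 to 177 CPM.

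Per kb, Jun made up a median of 59.5% of the summed JUN-family level in warm control mice and 43.6% in cold ones, and 59.4% and 38.8% in mice labelled FAKO. Jund made up 9.73% and 20.4% in control mice and 12.6% and 27.9% in mice labelled FAKO. The warm and cold ranges of the Jun share did not overlap within either genotype, although the gap was small (lowest warm and highest cold values of 49.5% and 48.3% in control mice, and of 49.9% and 49.7% in mice labelled FAKO). Jun itself had medians of 56.6 and 57.0 CPM in warm and cold mice labelled FAKO, so its lower share there did not come with a lower median.

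Egr1 encodes a zinc finger factor that serum response factor and its partners switch on alongside Fos. It is listed as ENSMUSG00000038418.7, on the plus strand of chromosome 18 from 34859823 to 34864984. Control mice at 29 °C had 1.70, 38.8 and 73.4 CPM (lowest, median, highest). The cold control mice had 4.03, 7.94, 21.8, 15.0 and 4.67 CPM, all below the warm median but within the warm range. Egr1 fell by 1.75 on the log2 scale (SE 0.75, adjusted p = 0.0428). That call was fragile, since it was lost without any of 8 of the 12 control mice (mice 2, 3, 5, 6, 16, 17, 19 and 21, adjusted p up to 0.0977) and with robust empirical Bayes (adjusted p = 0.0632). In mice labelled FAKO, Egr1 had 2.58, 13.9 and 40.4 CPM at 29 °C and 2.33, 6.59 and 32.8 CPM at 5 °C. Its log2 fold change there was -1.04 (SE 0.67, adjusted p = 0.167), and -1.79 (adjusted p = 0.0214) without mouse 27, the cold mouse with 32.8 CPM.

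Egr2, a relative of Egr1 known from myelinating Schwann cells and macrophages, is listed as ENSMUSG00000037868.15 on the plus strand of chromosome 10 from 67535475 to 67542188. It had 1.03, 7.99 and 9.70 CPM in warm control mice (lowest, median, highest) and 1.36, 2.09, 4.21, 3.59 and 1.38 CPM in cold control mice. All 5 cold values were below the warm median of Egr2, but the log2 fold change of -1.19 (SE 0.61, adjusted p = 0.0899) did not pass. Without warm control mouse 4 or 7, the 2 with about 1 CPM, it did (-1.38, adjusted p = 0.0453, and -1.40, adjusted p = 0.0393). In mice labelled FAKO, Egr2 had 0.620, 2.35 and 5.07 CPM at 29 °C and 0.598, 1.27 and 7.31 CPM at 5 °C, and its log2 fold change was -0.11 (SE 0.58, adjusted p = 0.873). Without mouse 27, the cold mouse with 7.31 CPM, the log2 fold change of Egr2 was -0.93 (adjusted p = 0.137).

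Atf3, a stress-induced factor that also pairs with JUN proteins, showed the largest rise of any member in mice labelled FAKO. It is listed as ENSMUSG00000026628.13, on the minus strand of chromosome 1 from 191170296 to 191218039. Control mice had 2.48, 9.97 and 21.5 CPM at 29 °C (lowest, median, highest) and 36.2, 31.8, 34.7, 59.8 and 28.2 CPM at 5 °C. The groups did not overlap, and the log2 fold change of Atf3 was 1.68 (SE 0.48, adjusted p = 0.00345), or 3.21-fold. Mice labelled FAKO had 1.60, 4.14 and 11.0 CPM at 29 °C and 13.9, 29.7 and 91.4 CPM at 5 °C. Again no cold value of Atf3 overlapped with a warm one, and the log2 fold change was 2.90 (SE 0.48, adjusted p = 7.52e-06), or 7.45-fold.

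**Figure D3:**
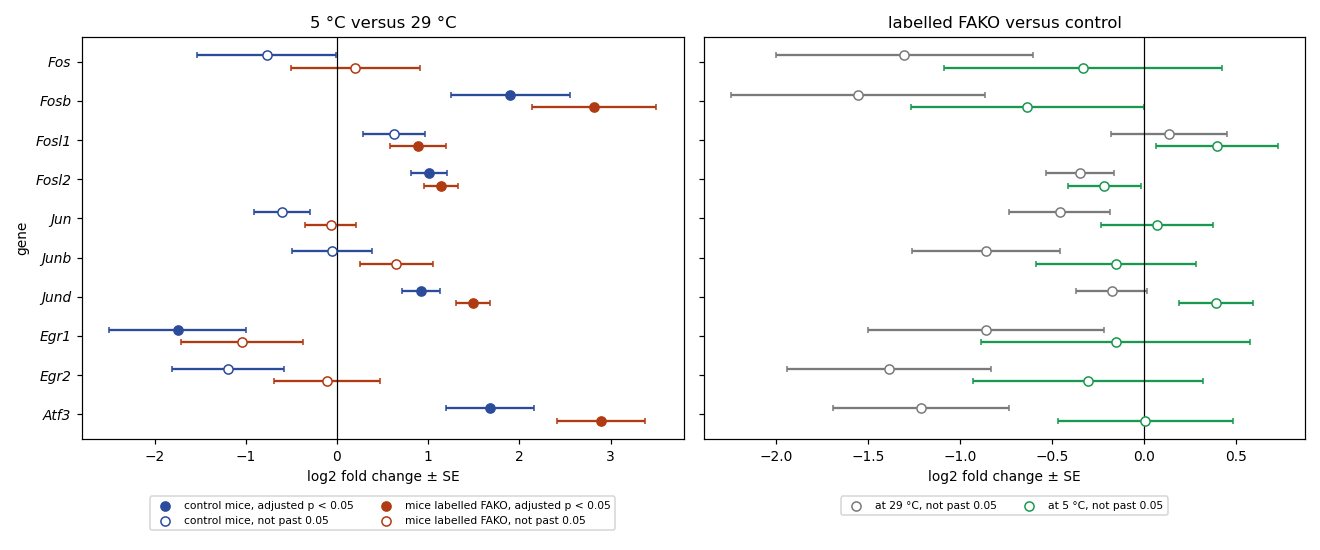
Log2 fold change ± SE of each gene for 5 °C against 29 °C (left) and for mice labelled FAKO against control mice (right), from edgeR's quasi-likelihood fit to all 26 mice; filled dots have an adjusted p below 0.05. Fosb, Fosl2, Jund and Atf3 are filled for both genotypes on the left, and no dot is filled on the right.

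Mice of the same group differed more in these genes than in most others. Pooled within groups, the SD of log2 CPM was 1.70 for Fos, 1.33 for Fosb, 1.12 for Egr2 and 0.97 for Atf3, with Egr1 between Fos and Fosb, where the median of 14246 genes with at least 1 CPM was 0.21. Only 110 of these genes had a larger SD than Fos. Junb (0.85), Jun (0.58) and Fosl1 (0.54) lay above 93.8% of genes or more, and Jund (0.38) and Fosl2 (0.37), which passed the test in cold with the smallest p-values, were the steadiest members. Fos ranged 68.6-fold between the 7 control mice at 29 °C and 22.1-fold between the 7 mice labelled FAKO at 29 °C, but 4.04-fold and 8.38-fold in the cold groups. Without control mouse 7, which had the lowest mitochondrial share, the range in warm control mice was 30.9-fold, a value computed after the data were seen.

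The spread was shared between members. Fos, Egr1, Egr2, Junb and Fosb were low together in control mice 4 and 7 and in mice 12 and 13 labelled FAKO, all kept at 29 °C, which had 1.93, 0.872, 1.36 and 1.39 CPM of Fos. They were among the highest together in control mice 3 and 5 and in mouse 11 labelled FAKO. After each group mean of log2 CPM was subtracted, Fos correlated with Egr1 (Pearson r = 0.918, Spearman rho = 0.917, n = 26, permutation p = 1e-05 within groups, the smallest the permutations can give, adjusted p = 3.67e-05 over 11 relations). Without the 2 mice farthest from the median of Fos, r was 0.892. Within the groups of 7 mice, r of Fos and Egr1 was 0.967 in warm control mice, 0.961 in warm mice labelled FAKO and 0.767 in cold mice labelled FAKO.

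The r of Fos was 0.886 with Jun, 0.849 with Egr2, 0.828 with Fosb, 0.806 with Junb, 0.762 with Jund, 0.759 with Atf3 and 0.634 with Fosl2. The adjusted permutation p of these 7 relations was at most 0.000523, and r without the 2 farthest mice stayed between 0.605 and 0.826. In the cold mice labelled FAKO the relation of Fos was weaker than in either warm group with Junb (r = 0.294), Jund (0.418) and Atf3 (0.446). The same held for Fosb (0.517), Egr2 (0.549), Fosl2 (0.593) and Egr1 (0.767). With Jun it was 0.840, against 0.954 in warm control mice and 0.848 in warm mice labelled FAKO. These differences were not tested. Over all mice Fosl1 stood apart, with an r of 0.227 with Fos (permutation p = 0.165, adjusted p = 0.182). Within groups the r of Fosl1 was 0.760 in warm control mice, -0.191 in warm mice labelled FAKO and 0.391 in cold mice labelled FAKO. Over all 45 pairs of members, 39 had an r above 0.5, 16 had an r above 0.8 and 0 had an r below 0. All members were measured in the same libraries, so a shared property of a library enters every pair.

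**Figure D4:**
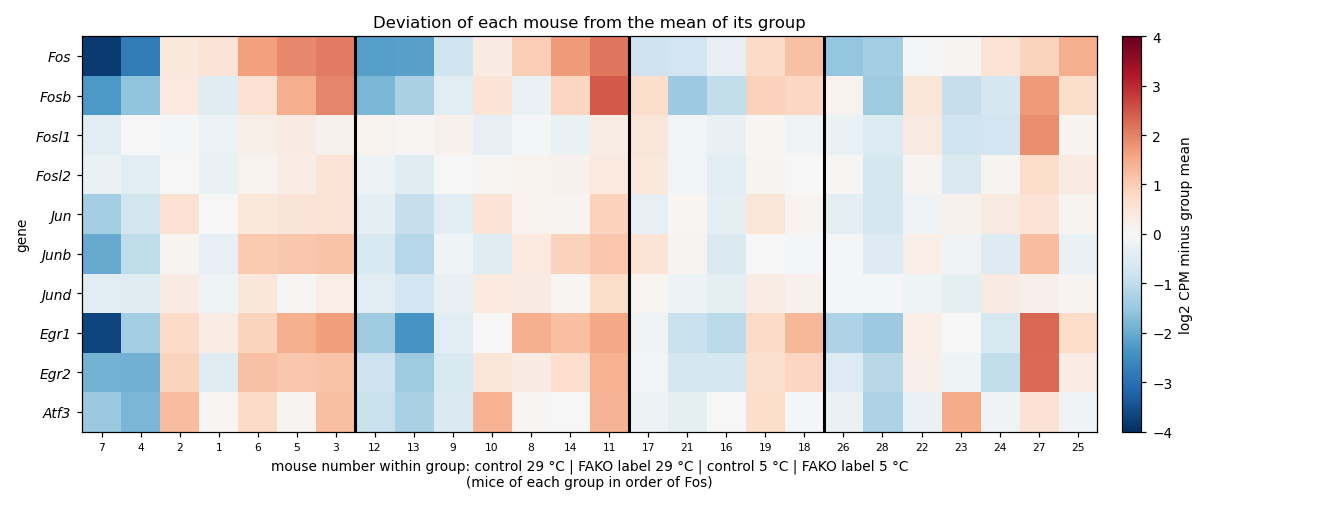
Log2 CPM of the 10 genes in each of 26 mice minus the mean of its group (colour; red is above and blue below the mean), with mice of each group ordered by Fos. Egr1, Jun, Egr2 and Fosb follow Fos most closely (r = 0.918, 0.886, 0.849 and 0.828), while the rows of Fosl1, Fosl2 and Jund are pale, with SDs of 0.54, 0.37 and 0.38.

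**Figure D5:**
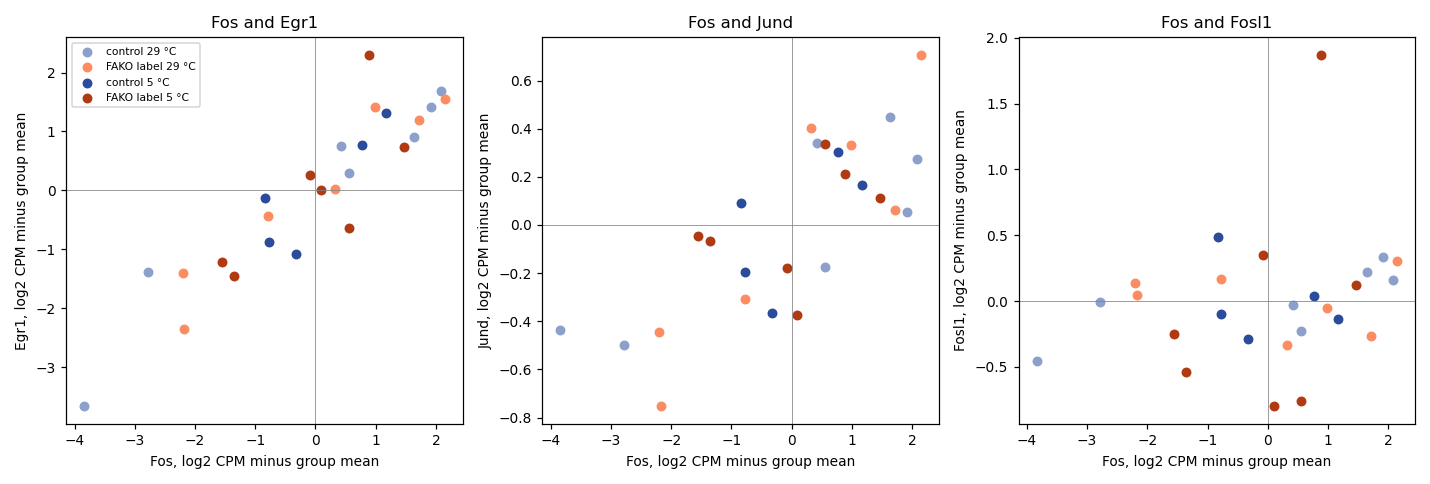
Log2 CPM minus the group mean of Fos (horizontal axes) against Egr1, Jund and Fosl1 (vertical axes) in 26 mice, coloured by group. The points follow a line for Egr1 (r = 0.918), less tightly for Jund (0.762) and hardly for Fosl1 (0.227), where cold mouse 27 labelled FAKO lies far above the rest.

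Other properties of the mice moved in part with the Fos level. The r of Fos with the log2 total count was 0.120 (permutation p = 0.563). With the share of counts taken by the most abundant gene, the mitochondrial ribosomal RNA mt-Rnr2, r was 0.519 (permutation p = 0.0193, adjusted p = 0.0236) and rho was 0.392 (permutation p = 0.0559). The 4 warm mice with the least Fos also had 1487, 5483, 1515 and 803 CPM summed over the 8 skeletal muscle markers (control mice 4 and 7, then mice 12 and 13 labelled FAKO). Yet warm mouse 14 labelled FAKO had 1386 CPM of muscle markers with 22.2 CPM of Fos, and warm mouse 9 labelled FAKO had 558 CPM with 3.86 CPM of Fos. Cold mouse 25 labelled FAKO had the highest muscle sum of all mice (7545 CPM) and the most Fos of its group (29.1 CPM). Cold control mouse 18 had the lowest muscle sum (0.815 CPM) and also the most Fos of its group (31.5 CPM). The part of muscle or of tissue handling in the level of Fos was not tested.

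The genes outside the 10 that followed them most closely from mouse to mouse were mostly immediate early genes too. By Pearson r over the 26 mice after subtracting group means, the closest to Fos were Btg2 (0.93), Zfp36 (0.92) and Ccn1 (0.91), and the same 3 were closest to Egr1. Btg2 encodes an antiproliferative protein, Zfp36 an mRNA-destabilizing protein and Ccn1 a secreted matricellular protein. Ccn1 (0.91) was also closest to Jun, and Ier2 (0.93) to Junb. Zyx (0.88), which encodes a focal adhesion protein, was closest to Fosb, Dusp1 (0.90), a MAP kinase phosphatase gene, to Jund, and Rasip1 (0.87), an endothelial gene, to Fosl2. For Fosl1 the closest genes were Lpgat1 (0.89), Jak2 (0.88) and Stk38l (0.88), which are not immediate early genes. Cold mouse 27 labelled FAKO lay 1.87 above its group mean of Fosl1 on the log2 scale, the farthest of all mice. The r values with Fosl1 were not computed without this mouse, so it may have set which genes came closest.

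Since most members rose and fell together between mice, their promoters were searched for sites that cyclic AMP, serum and AP-1 or EGR proteins are known to use. RefSeq (GRCm38.p6) gave windows reaching 250 bases upstream of a start for 8 of the 10 genes, 12 windows in all, and Egr1 and Fosl1 were without an entry. The letters searched on both strands were TGACGTCA for the cyclic AMP response element (CRE), its shorter form TGACG (short CRE), the letters TGACTCA for an AP-1 site, GCGTGGGCG for an EGR site, TATAAA for the TATA box, and the CArG box of serum response factor. A full CRE also holds a short one. No member window held a full CRE, an AP-1 site or an EGR site, which 1.55%, 4.46% and 0.536% of 32851 windows held. The short CRE was found for Fos, Fosb, Junb, Egr2 and Atf3 (17.8% of all windows), the CArG box for Egr2 (1.47%) and the TATA box for Fos (12.4%). Egr2 had 5 of the 12 windows and so more places for a match than the other genes. Its outermost window held no match, and the window from 67537316 held a CArG box without a short CRE. None of these letters was found for Jun, Fosl2 or Jund. Bases outside these 250 were not searched, so a gene without a match may hold the site elsewhere. The 130 bases before the start are shown for the 5 genes with a match, 5′ to 3′ on the gene's strand, with matches in capitals (CGTCA is the short CRE read on the other strand).
Fos, chr12:85473760-85473889, plus strand: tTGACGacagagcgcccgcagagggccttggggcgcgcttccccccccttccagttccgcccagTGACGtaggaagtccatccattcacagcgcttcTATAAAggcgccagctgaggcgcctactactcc
Fosb, chr7:19310046-19310175, minus strand: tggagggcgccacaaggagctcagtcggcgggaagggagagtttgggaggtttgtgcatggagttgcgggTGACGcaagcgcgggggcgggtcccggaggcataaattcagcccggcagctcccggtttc
Junb, chr8:84978749-84978878, minus strand: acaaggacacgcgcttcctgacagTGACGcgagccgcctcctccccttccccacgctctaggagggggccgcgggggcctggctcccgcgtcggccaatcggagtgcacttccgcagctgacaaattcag
Egr2, chr10:67537739-67537868, plus strand, before 1 of its 5 RefSeq starts: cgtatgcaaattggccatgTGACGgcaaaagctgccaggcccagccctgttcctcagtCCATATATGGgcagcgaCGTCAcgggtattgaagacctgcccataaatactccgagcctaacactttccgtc
Atf3, chr1:191183334-191183463, minus strand: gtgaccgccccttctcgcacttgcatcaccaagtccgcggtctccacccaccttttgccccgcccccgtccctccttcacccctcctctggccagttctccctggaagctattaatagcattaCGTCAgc

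In the Fos window the short CRE nearest to the start begins 66 bases before it and the TATA box 33 bases before it. In the Egr2 window the CArG box begins 72 bases before the start and lies between the short CREs, which begin 111 and 55 bases before it. The members with a short CRE include Fosb and Atf3, which rose in cold, and Fos and Junb, which did not pass the test. Fosl2 and Jund rose without a match in this window, and the RefSeq start used for Jund lies upstream of the gene as counted. The windows printed for Atf3 and Egr2 and the window of Fosl2 lie inside the gene as counted, downstream of its outermost start. A match is a run of letters and was not tested as a site.

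Mice labelled FAKO were compared with control mice at 29 °C, and none of the 10 members passed the test over all genes. The log2 fold change of mice labelled FAKO against control mice was -1.55 (SE 0.69) for Fosb, -1.38 (SE 0.55) for Egr2, -1.30 (SE 0.70) for Fos, -1.21 (SE 0.48) for Atf3, -0.86 (SE 0.64) for Egr1 and -0.86 (SE 0.40) for Junb. It was -0.46 for Jun, -0.35 for Fosl2, -0.17 for Jund and 0.14 for Fosl1. The median was -0.86, beside -0.02 over all genes tested. The ranges of every member overlapped between the genotypes.

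By edgeR's quasi-likelihood test 0 of 10 members passed at 29 °C (smallest adjusted p = 0.520, for Atf3), where 0.081% of all genes did, and DESeq2's Wald test also called 0. At an unadjusted p under 0.05 there were 4 members (Fosb, Junb, Egr2 and Atf3), beside 7.65% of all genes. None of the 10 had groups without overlap, which 0.249% of all genes had. Because the members moved together from mouse to mouse, their 9 negative values are not 9 separate observations. The interval of the log2 difference reached from -2.75 to 0.15 for Fos and from -2.20 to -0.22 for Atf3 (95%, unadjusted), so the intervals of both held differences of several fold.

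After cold, most differences between the genotypes were smaller than their SE or close to it. The log2 fold change of mice labelled FAKO against control mice was -0.33 (SE 0.76) for Fos, -0.63 (SE 0.63) for Fosb, 0.40 (SE 0.33) for Fosl1, -0.21 (SE 0.20) for Fosl2, 0.07 (SE 0.30) for Jun and -0.15 (SE 0.44) for Junb. It was 0.39 (SE 0.20) for Jund, -0.15 (SE 0.73) for Egr1, -0.30 (SE 0.62) for Egr2 and 0.01 (SE 0.47) for Atf3. Without cold mouse 27 it was -1.13 for Egr2, -1.07 for Fosb, -0.90 for Egr1 and -0.19 for Fosl1. The signs for Jun and Atf3 turned with the scaling (-0.00011 and -0.028 with library size alone). Jund came closest to the threshold (adjusted p = 0.401), with 5 of 7 mice labelled FAKO above every control mouse. By edgeR's quasi-likelihood test 0 of 10 members passed, where 0.139% of all genes did, with 0 at an unadjusted p under 0.05 and 0 by DESeq2. None had groups without overlap, which 1.11% of all genes had.

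The difference of the cold responses asks whether the step from 29 °C to 5 °C was larger in mice labelled FAKO. All 10 values were positive, with a median of 0.70 on the log2 scale beside 0.04 over all genes, the largest being 1.22 (SE 0.68) for Atf3, 1.08 (SE 0.84) for Egr2 and 0.97 (SE 1.03) for Fos. By edgeR's quasi-likelihood test 0 of 10 passed (smallest adjusted p = 0.314, for Jund at 0.57, SE 0.28), where 1.16% of all genes did, with 0 at an unadjusted p under 0.05 and 0 by DESeq2. The difference includes the lower levels at 29 °C given above, so it is not a separate observation. Without cold mouse 27 labelled FAKO the difference was 0.26 for Egr2, 0.48 for Fosb (0.92 with all mice) and 0.40 for Junb (0.70 with all mice). In the same setting it was -0.33 for Fosl1, -0.01 for Fosl2 and -0.04 for Egr1, and with library size alone it was -0.07 for Fosl2. The larger rises of Atf3 and Jund in mice labelled FAKO are thus not shown to differ from those in control mice.

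Of 11 genes of other basic leucine zipper partners of AP-1 that were tested, 6 rose and 2 fell in cold control mice, where 31.6% of all genes rose and 33.4% fell. In mice labelled FAKO 7 rose and 2 fell, where 33.7% and 34.9% of all genes did. Nothing particular to the list is read from these counts. The small MAF genes, whose proteins lack an activation domain, rose in both genotypes, by log2 fold changes of 2.32 and 3.11 for Maff (control mice, then mice labelled FAKO), 1.17 and 1.55 for Mafk and 1.16 and 0.98 for Mafg. Batf2 fell (-0.90 and -1.58), and Batf, a JUN partner in immune cells, passed only in mice labelled FAKO (1.17, and 0.20 in control mice), a difference of responses that did not pass the test. Maf fell in control mice (-0.40), and Atf7 in mice labelled FAKO (-0.25).

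Of 44 other immediate early genes, 22 rose and 9 fell in control mice, beside 31.6% and 33.4% of all genes, and 27 rose and 5 fell in mice labelled FAKO, beside 33.7% and 34.9%. Their median log2 fold changes were 0.60 and 0.82. Nr4a3, an orphan nuclear receptor gene known to respond to cyclic AMP, rose the most, from 3.23 ± 2.64 CPM to 37.8 ± 4.86 CPM in control mice (SD, n = 7 and 5), or 3.55 on the log2 scale (SE 0.42, adjusted p = 3.93e-08). In mice labelled FAKO its log2 fold change was 4.62 (SE 0.44, adjusted p = 5.23e-10). Ier5l fell the most among those with a mean of at least 1 CPM, with log2 fold changes of -2.03 and -1.94. The closest followers of Fos between mice were not among those that rose, since Btg2 fell in control mice (-1.59) and had -0.60 in mice labelled FAKO, Zfp36 had -0.47 and -0.16, and Ccn1 had -1.12 and 0.22 without passing. None of these 44 genes passed in either genotype comparison or in the difference of the cold responses.

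Upstream of AP-1, of 20 genes of MAP kinases, their activators and the RSK and MSK kinases, 6 rose and 11 fell in control mice, beside 31.6% and 33.4% of all genes, and 7 rose and 13 fell in mice labelled FAKO, beside 33.7% and 34.9%. Map2k6, an activator of p38 kinases, fell from 8.65 ± 1.48 CPM to 0.759 ± 0.505 CPM in control mice (SD, n = 7 and 5), or -3.52 on the log2 scale (SE 0.34, adjusted p = 7.39e-10), and had -3.32 in mice labelled FAKO. Map2k3, another activator of p38, rose by 1.18 and 1.16. Of 6 genes of serum response factor and its partners, Elk1 rose (0.43 and 0.42) and Elk3 fell (-0.35 and -0.75) in control mice and in mice labelled FAKO, and Srf rose in mice labelled FAKO (0.62). Of the EGR corepressors, Nab1 rose in control mice (0.27) and Nab2 did not pass.

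Of 17 genes widely cited as AP-1 targets, a list that includes Fosl1, 8 rose and 2 fell in control mice, beside 31.6% and 33.4% of all genes, and 11 rose and 2 fell in mice labelled FAKO, beside 33.7% and 34.9%. Hmox1, which encodes haem oxygenase, rose from 9.24 ± 1.12 to 542 ± 143 CPM in control mice (SD, n = 7 and 5), or 5.87 on the log2 scale (SE 0.30, adjusted p = 3.52e-15), and by 5.34 (SE 0.28) in mice labelled FAKO. Plaur, the receptor gene of urokinase, rose by 2.73 and 3.22, Timp1, an inhibitor of metalloproteinases, by 2.28 and 2.78, and Hbegf, a growth factor gene, by 2.16 and 2.76. The urokinase gene Plau (-0.99 and -1.03) and the collagenase gene Mmp13 (-2.25 and -2.42) fell in both genotypes. None of the 17 passed between the genotypes at either temperature.

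Markers of other cells were measured in the same libraries, and their counts in cold stand beside the same shares of all genes. Of 6 neutrophil markers tested 5 rose in cold control mice and 6 in cold mice labelled FAKO. Summed over 7 markers, neutrophil RNA ran from 2.06 to 6.65 CPM in warm control mice, 1.51 to 3.98 in warm mice labelled FAKO, 6.78 to 14.3 in cold control mice and 6.04 to 74.3 in cold mice labelled FAKO. The highest was cold mouse 27, the same that had the most Fosl1, Fosl2, Fosb, Egr1, Egr2, Jun and Junb of its group. Of 8 macrophage markers 3 rose and 3 fell in control mice and 5 rose and 2 fell in mice labelled FAKO, with sums of 218 to 316 CPM in warm and 254 to 325 in cold control mice. In mice labelled FAKO the macrophage sums were 215 to 265 CPM in warm and 274 to 385 in cold mice, with no overlap. Of 8 endothelial markers 4 rose in both genotypes, and 4 fell in control mice and 3 in mice labelled FAKO. Their sum was 516 to 677 CPM in warm and 800 to 923 in cold control mice, with no overlap, and 594 to 757 and 694 to 955 CPM in mice labelled FAKO. Lymphocyte markers were rare (4.13 to 10.1 CPM in warm and 1.19 to 2.36 in cold control mice, 4.31 to 8.08 and 1.35 to 20.6 in mice labelled FAKO), with 0 of 7 higher in either genotype, 4 lower in control mice and 2 lower in mice labelled FAKO. Of 7 Schwann cell and nerve markers 3 fell in control mice and 4 in mice labelled FAKO, and their summed level did not overlap between warm and cold mice (89.8 to 125 and 53.5 to 74.4 CPM in control mice, 80.8 to 98.4 and 52.0 to 73.0 CPM in mice labelled FAKO). Of 8 stromal markers 3 and 2 fell and 0 and 1 rose in control mice and mice labelled FAKO, and of 8 skeletal muscle markers none passed while their sum ran from 0.815 to 7545 CPM over all mice. Of 5 red blood cell markers 5 passed as higher in mice labelled FAKO and 0 in control mice, while 0 passed in the difference of the cold responses and 0 between genotypes at 5 °C. Of 10 brown adipocyte markers 5 rose and 2 fell in control mice (median log2 fold change 0.15), and 6 rose and 3 fell in mice labelled FAKO (median 0.31). Their sum was 6964 to 8824 CPM at 29 °C and 28240 to 35938 CPM at 5 °C, of which Ucp1 alone had a mean of 16005 CPM in cold control mice. No marker was at 0 in all mice. Of 6 RNAs retained in the nucleus 3 rose and 1 fell in control mice, and 2 rose and 3 fell in mice labelled FAKO. Neat1 was the one that passed between genotypes at 5 °C (-0.99, SE 0.19, adjusted p = 0.0206). In bulk tissue, fewer cells of a type and less RNA per cell cannot be told apart, and the part of these cells in the levels of the 10 genes was not tested.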

How the data were processed

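The authors made stranded libraries from BAT RNA depleted of rRNA. They used STAR 2.5.2b (mm10) and featureCounts 1.5.2 to obtain reads per gene, and deposited these as raw counts. All 26 columns were used, and groups came from the sample titles. Symbols for 50462 of 50686 entries and exon lengths were taken from GENCODE M21, while the authors counted on an earlier release. Genes were kept with filterByExpr, scaled with TMM and fitted in R 4.3.3 with edgeR 4.0.16 (legacy quasi-likelihood, 1 term per group, 4 groups sharing the spread), with Benjamini-Hochberg adjustment over 17286 genes and a threshold of 0.05. SE is the log2 fold change over the root of F. Log2 CPM had a prior count of 2, and correlations used 100000 permutations within groups. DESeq2 1.42.0 was an alternative. The fit was tested on simulated data.

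The members, lists and tests were chosen with earlier results of these data known. Named genes are the 10 members, in each comparison the 3 largest rises and falls of the other lists past the threshold with at least 1 CPM, and the 3 genes closest to each member. Some genes that this rule picks are not reported here. Other genes were named after their values were seen. Promoter windows came from RefSeq (GRCm38.p6). The reads were not used.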

Additional observations from a re-analysis of the deposited data

Results flagged for a closer look

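In groups of 4 to 10 mice, a mouse was marked where its gap to its nearest neighbour took up more of the range of log2 CPM than Dixon's 95% limit. Of 40 combinations of gene and group 2 were marked, where chance marks about 1 in 20. Both belong to cold mouse 27 labelled FAKO. It had 14.5 CPM of Fosl1 (257 counts), with the next mouse at 4.96 CPM, and 7.31 CPM of Egr2 (130 counts), with the next mouse at 1.79 CPM. The same mouse had the highest sum of neutrophil markers, 74.3 CPM. It also had the highest sum of red blood cell markers (1497 CPM) and the lowest of stromal markers (1184 CPM) of all mice. Cold mouse 26 labelled FAKO had the next highest neutrophil sum (28.4 CPM), with 3.23 CPM of Fosl1 and 0.976 CPM of Egr2. The part of neutrophils or other cells in these values was not tested.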

How the results depend on the processing

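No paired analysis was possible because no mouse number is shared between groups. The number of members past the threshold was 4 to 7 in cold control mice and 5 in cold mice labelled FAKO when each mouse was left out in turn, and stayed 0 in the other 3 comparisons. With at least 10 counts in every mouse, Fosb and Egr2 were not tested. Beside the losses given with the results, the call of Fosl1 in cold mice labelled FAKO was lost with library size alone (0.57, adjusted p = 0.100) and with only the groups compared (0.84, adjusted p = 0.0547). With only the groups compared Fosl1 passed in control mice (0.58, adjusted p = 0.00736), and Jun passed there with library size alone (-0.69, adjusted p = 0.0338) and upper-quartile factors (-0.70, adjusted p = 0.0443). Library size alone moved the median of all genes to -0.14 and -0.34 in cold (control mice, then mice labelled FAKO), 0.13 between genotypes at 29 °C and -0.15 for the difference of the cold responses, and upper-quartile factors moved it to -0.12 and -0.18 in cold. Signs of uncalled values turned with library size alone for Fos in cold mice labelled FAKO (-0.14), Fosl2 in the difference (-0.068) and, between genotypes at 5 °C, Jun (-0.00011) and Atf3 (-0.028, and -0.0086 with upper-quartile factors). The causes were not tested.

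Leaving out 1 mouse also turned the sign of 13 uncalled results, with these ranges of log2 fold change. In cold they were -0.27 to 0.14 for Junb in control mice, and -0.13 to 0.65 for Fos, -0.22 to 0.12 for Jun and -0.93 to 0.22 for Egr2 in mice labelled FAKO. Between genotypes at 5 °C they were -0.66 to 0.045 for Fos, -0.19 to 0.54 for Fosl1, -0.033 to 0.21 for Jun, -0.46 to 0.0028 for Junb, -0.90 to 0.29 for Egr1 and -0.37 to 0.23 for Atf3. In the difference they were -0.33 to 0.40 for Fosl1, -0.011 to 0.25 for Fosl2 and -0.043 to 1.15 for Egr1. Over all genes, leaving out 1 mouse gave 7 to 93, 7 to 100 and 49 to 371 calls between genotypes at 29 °C, at 5 °C and in the difference, where all mice gave 14, 24 and 200. DESeq2 gave 42, 198 and 466. Library size alone gave 34 (34 higher and 0 lower, against 10 and 4) and 5 calls between genotypes at 29 °C and 5 °C, and for the difference 0 higher and 278 lower, against 50 and 150. With every gene counted the 3 comparisons gave 9, 15 and 27 calls. Between genotypes at 5 °C there were 45 calls with at least 10 counts and 9 with only the groups compared. In cold, library size alone gave 4165 higher and 6243 lower in control mice, against 5454 and 5779, and 3223 and 8384 in mice labelled FAKO, against 5825 and 6035, where upper-quartile factors gave 4694 and 7369. No call of Fosb, Fosl2, Jund or Atf3 in cold was lost in any setting in which the gene was tested.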
